A study of Mus musculus with 6 samples.

Results

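The transcripts of the mouse mitochondrial genome are the 37 of 54532 listed genes whose chromosome is given as MT: 13 protein-coding genes, 2 ribosomal RNA genes and 22 transfer RNA genes. They were measured by RNA sequencing of cerebral cortex from 12-month-old mice, with 3 libraries labelled as knockout of Fam69c (Fam69c-/-, KO below) and 3 wild-type (WT) libraries. Fam69c encodes a kinase-like protein of the secretory pathway, and the series concerns stress granules and inflammasomes. The labels give neither the strain nor how the deletion was made. Nor do they say that every library is a different animal, and p-values therefore reflect only how the libraries scatter. Values are FPKM, the reads on a gene per kilobase of its length and scaled to the total reads of the library, as the authors deposited them.

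Multiplied by gene length, the FPKM values gave back whole reads, from 30935326 to 35065884 per library, of which 1168750 to 1346038 lay on mitochondrial genes. Fam69c itself read 1.54, 1.84 and 1.42 FPKM in the KO libraries, against 2.03, 1.57 and 2.08 FPKM in the WT libraries. These groups overlapped, its RNA therefore offers no check on which libraries lack the gene, and KO and WT stand here for the labels alone. Markers of cortical excitatory neurons were present in every library, such as Slc17a7 at 285 to 312 FPKM and Tbr1 at 36.8 to 40.7 FPKM. The summed level of 6 striatal neuron markers was 129, 251 and 217 FPKM in KO and 269, 269 and 92.2 FPKM in WT. KO replicate 1 and WT replicate 3 thus stood below the other 4 libraries, and results that turn without this pair are given both ways.

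The mitochondrial genome is a small circle that is transcribed from both strands into long precursors. The precursors are cut mainly at the transfer RNAs that lie between the genes, and the freed messenger and ribosomal RNAs receive short poly(A) tails. The encoded proteins are core subunits of the respiratory chain and of ATP synthase, on which neurons depend for most of their ATP, while the other subunits and all factors for transcription come from nuclear genes. Parts of the mitochondrial genome have also been copied into nuclear chromosomes over evolution, and such copies can share reads with the genes they came from.

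In these data 5 protein-coding genes are identical to a listed nuclear copy over nearly their whole length, and 6 lie wholly in a stretch that was copied to chromosome 1. The transcripts of 11 mitochondrial genes matched 16 listed nuclear pseudogenes at 90% identity or more over at least 100 bases, and 7 of the 16 matched at 99% or more. These 7 lie side by side in the same order on the minus strand of chromosome 1, at mm10 chr1:24611535-24616197. They are copies of the stretch chrM:6390-11042, from the last 483 bases of mt-Co1 to the first 876 bases of mt-Nd4, and differ from it at 2 of 4140 matched bases. The block wholly holds mt-Co2, mt-Atp8, mt-Atp6, mt-Co3, mt-Nd3 and mt-Nd4l and the transfer RNA genes mt-Ts1, mt-Td, mt-Tk, mt-Tg and mt-Tr. For mt-Atp8 no copy is listed as a gene, but 233 bases lie between Gm10925 and Gm28661 on chromosome 1. In their place the mitochondrial genome has the last 3 bases of mt-Co2, not matched by Gm28661, and the 230 bases between mt-Co2 and mt-Atp6.

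The extent of the identity is shown by mt-Nd4l, whose transcript from GENCODE M21 (chrM:9877-10173, plus strand) follows with the 294 bases shared letter for letter with Gm10222 in capitals.
mt-Nd4l: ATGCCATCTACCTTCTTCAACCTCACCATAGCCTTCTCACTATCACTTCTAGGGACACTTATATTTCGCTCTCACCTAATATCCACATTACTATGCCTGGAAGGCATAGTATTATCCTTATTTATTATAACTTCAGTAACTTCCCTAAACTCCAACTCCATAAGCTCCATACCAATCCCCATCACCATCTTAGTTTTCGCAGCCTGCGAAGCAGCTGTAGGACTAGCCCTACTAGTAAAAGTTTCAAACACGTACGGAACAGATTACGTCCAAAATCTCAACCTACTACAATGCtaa
In 100-base windows, 98.5% of mt-Nd4l, 99.5% of mt-Co2, 99.5% of mt-Atp6, 99.9% of mt-Co3 and 97.6% of mt-Nd3 occur letter for letter in a nuclear transcript. For mt-Nd4 the share was 60.8%, for mt-Co1 30.8% and for mt-Nd2 3.20%, and it was 0 for the other transcripts that hold windows of that length. mt-Atp8 is among these, but no copy of it is listed, so its 0 does not show that it lacks a nuclear copy.

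Within the bases matched to the 7 listed copies, mt-Nd3 and mt-Co1 each differ at 1 base, in capitals here with its surroundings. mt-Atp8 and the transfer RNA genes of the block were not compared base by base. Positions count from 1 at the 5′ end of the mitochondrial transcript, and the mitochondrial base is written first: T3C in mt-Nd3 against Gm28438, and A1066T in mt-Co1 against Gm29216. The first 2 lines are chrM:9459-9481, plus strand, and chr1:24613097-24613119, minus strand. The last 2 lines are chrM:6373-6413, plus strand, and chr1:24616165-24616197, minus strand, where the match begins only at base 10 of Gm29216.
mt-Nd3: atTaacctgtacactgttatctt
Gm28438: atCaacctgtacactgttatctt
mt-Co1: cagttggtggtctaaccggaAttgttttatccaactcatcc
Gm29216: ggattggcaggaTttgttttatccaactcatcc

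The reads on both members of each pair are given together, since the sources used here do not state how reads with several matches were placed. On mt-Co2 there were 3332, 3001 and 2956 reads in KO and 2741, 3045 and 2912 reads in WT, and on its copy Gm28661 there were 2912, 4334 and 2990 reads in KO and 2201, 3475 and 2367 reads in WT. The gene therefore held 40.9% to 55.5% of the reads of the pair. For mt-Atp6 with Gm10925 this share was 52.6% to 64.5%, for mt-Co3 with Gm28437 52.7% to 63.7%, and for mt-Nd4l with Gm10222 49.1% to 81.5%. The pair with the difference T3C stood apart, as mt-Nd3 held 6.56% to 11.6% of the reads it shared with Gm28438. Reads of the 5 pairs together came to 3.19%, 4.22% and 3.42% of the reads of mt-Co1 in KO and to 4.86%, 3.73% and 3.15% in WT. Of the 2 genes partly in the block, mt-Co1 held 99.6% to 99.85% of the reads it shared with Gm29216, a copy with 1905 reads in KO replicate 1 and 646 to 868 reads in the other 5 libraries. For mt-Nd4 with Gm28439 the share was 99.01% to 99.42%. The 9 copies under 99% identity had at most 262 reads in any library, and 6 of them had fewer than 10. The other three, all on chromosome 2, were Gm13340 of mt-Co1 with 149 to 262 reads, Gm13339 of mt-Nd2 with 9 to 77 reads and Gm13341 of mt-Co2 with 15 to 19 reads.

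**Figure D1:**
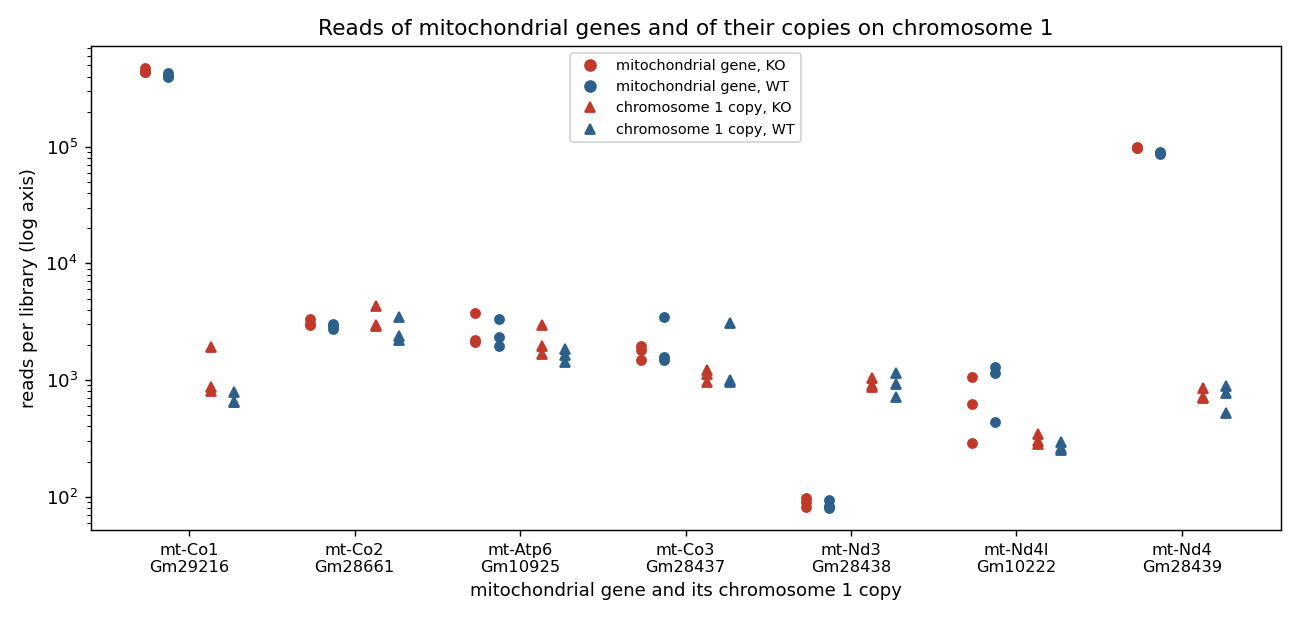
Reads per library (log axis) on 7 mitochondrial genes (circles) and on their chromosome 1 copies (triangles), in 3 KO (red) and 3 WT (blue) libraries. The 5 genes in the middle, mt-Co2 to mt-Nd4l, had between 80 and 3744 reads, while mt-Co1 and mt-Nd4, which lie only in part in the copied block, had between 87414 and 474127.

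Per length, mt-Co1 was the highest of the 37 genes in every library, with 9053, 8574 and 7906 FPKM in KO and 8310, 8283 and 8334 FPKM in WT. Over all 6 libraries the order of mean levels of the 9 messenger and ribosomal RNAs not wholly in the block was mt-Co1 (8410 FPKM), mt-Cytb (4858 FPKM), mt-Nd1 (4148 FPKM), mt-Nd2 (2528 FPKM), mt-Rnr1 (2326 FPKM), mt-Nd4 (2054 FPKM), mt-Nd6 (1873 FPKM), mt-Rnr2 (1841 FPKM) and mt-Nd5 (1829 FPKM). The first 4 did not overlap with one another. Further down, mt-Nd2 overlapped with mt-Rnr1, mt-Nd4 with mt-Nd6, mt-Nd6 with mt-Rnr2 and mt-Rnr2 with mt-Nd5, while mt-Rnr1 lay above mt-Nd4 throughout. How fully the libraries recovered ribosomal and messenger RNAs was not tested. The order is therefore one of FPKM alone and need not be that of RNA amounts in the tissue. The 6 genes inside the block averaged 7.65 to 133 FPKM. Among these genes with low values were mt-Co2 and mt-Co3, whose products join that of mt-Co1 in the same enzyme. How reads with several matches were placed is not given, so FPKM in the block need not give RNA levels. The reason for the low values was not tested.

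Lengths matter for the 2 genes that lie partly in the block. If their reads are divided by the bases outside it alone, mt-Nd4 reads 5696 ± 157 FPKM in KO and 5579 ± 177 FPKM in WT (SD, n = 3 each) over 502 bases. By the same step mt-Co1 reads 12382 ± 838 FPKM in KO and 12088 ± 37.1 FPKM in WT over 1062 bases. On that scale mt-Nd4 stands above mt-Cytb rather than below mt-Rnr1. Which reads of these genes fell in the copied part is not given in the sources used here.

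**Figure D2:**
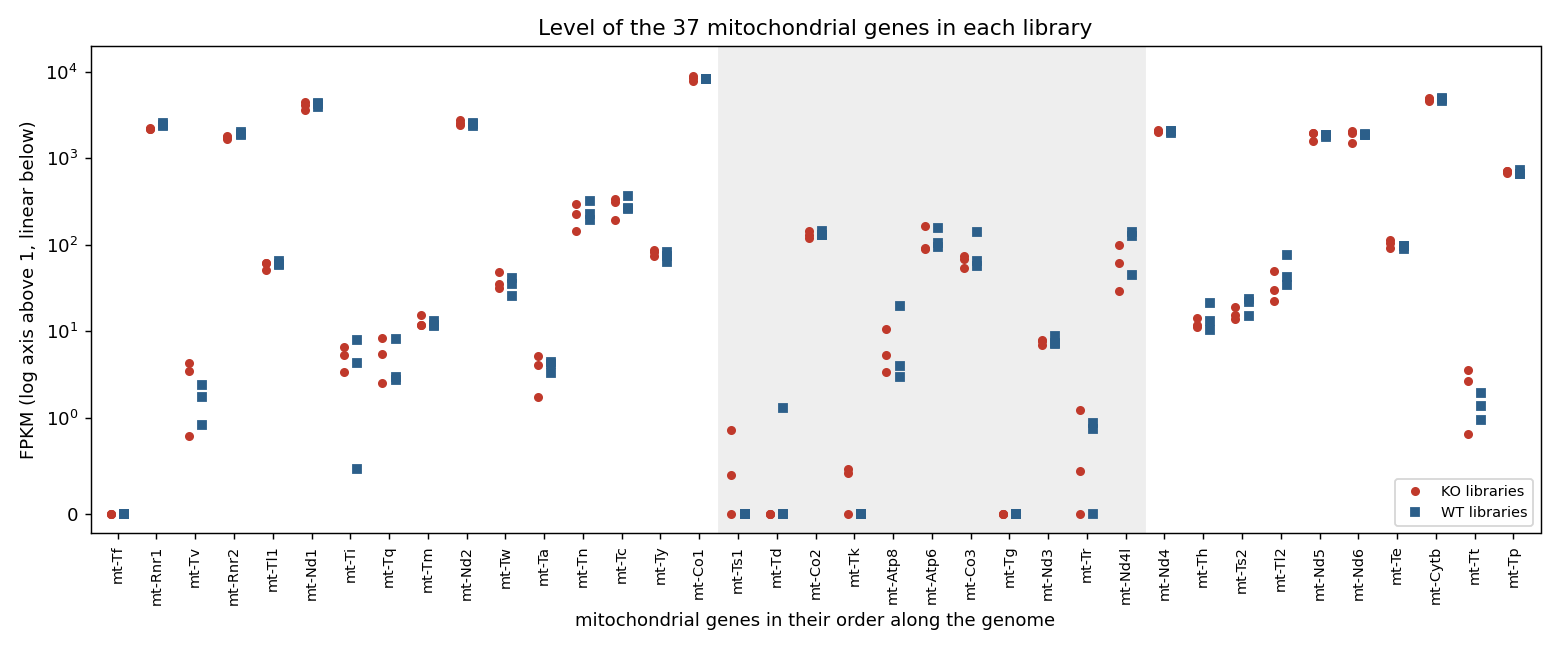
FPKM of the 37 mitochondrial genes (log axis above 1, linear below) in their order along the genome, in 3 KO (red circles) and 3 WT (blue squares) libraries. Grey marks the 11 genes wholly inside the stretch copied to chromosome 1. Its 6 messenger RNAs average 7.65 to 133 FPKM, against 1829 to 8410 FPKM for the other 7. How reads with several matches were placed is not given, so FPKM in the grey part need not give RNA levels.

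To ask whether any mitochondrial transcript differed with genotype, every gene averaging 0.5 FPKM or more was fitted with limma on log2(FPKM + 0.5), KO minus WT, with Benjamini-Hochberg adjustment over all 15694 tested genes. Of the 37 mitochondrial genes 32 entered, and the transfer RNA genes mt-Tf, mt-Tg, mt-Td, mt-Ts1 and mt-Tk did not. In limma 0 of the 32 passed an adjusted p of 0.05, against 0.0% of all genes tested, and 0 of the 32 had an unadjusted p under 0.05, against 3.82% of all genes tested (1.63% higher and 2.19% lower in KO). With voom on the recovered reads 0 passed and 2 had an unadjusted p under 0.05, mt-Rnr1 and mt-Rnr2. The log2 fold change was positive for 13 and negative for 19, with a median of -0.04 against -0.0042 over all genes. All 3 KO values lay below all 3 WT values for 2 of 32 genes, where 4.7% of all genes tested did so, and above them for 0, where 4.17% did so. Every adjusted p of the 32 was 0.999 (limma, n = 3 per group).

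Mitochondrial genes took 3.95%, 3.87% and 3.58% of all reads in the KO libraries, against 3.81%, 3.78% and 3.75% in the WT libraries. The KO libraries spanned the WT values, with KO replicate 1 highest and KO replicate 3 lowest of all 6. By counting error alone each of these shares is known to within 0.0067 percentage points (Wilson 95% interval, reads taken as independent). The mean was 3.80% ± 0.193 in KO and 3.78% ± 0.0324 in WT (SD, n = 3 each). The difference was 0.019 percentage points with all libraries, 0.13 without KO replicate 3, -0.055 without KO replicate 1, -0.016 without KO replicate 2, 0.035 without WT replicate 1, 0.0028 without WT replicate 3 and -0.071 without both KO replicate 1 and WT replicate 3. For messenger RNAs alone the shares were 3.45%, 3.35% and 3.09% in KO, against 3.24%, 3.24% and 3.21% in WT, a difference of 0.066 percentage points that was 0.17 without KO replicate 3, -0.011 without KO replicate 1, 0.038 without KO replicate 2 and -0.022 without that pair. For both shares the groups overlapped. In such bulk samples a different mix of cells and a different amount of mitochondrial RNA per cell cannot be told apart.

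Complex I, NADH dehydrogenase, is the entry point of electrons into the respiratory chain and takes 7 of its subunits from the mitochondrial genome. Among those not wholly in the block, mt-Nd1 (chrM:2751-3707) read 4544, 4098 and 3649 FPKM in KO, against 4339, 4282 and 3977 FPKM in WT. The WT values lay inside the range of the KO values, and the difference on the log2 scale was -0.04 (95% interval -0.35 to 0.27). For mt-Nd2 (chrM:3914-4951) the values were 2765, 2576 and 2430 FPKM in KO, against 2505, 2545 and 2349 FPKM in WT. Here 2 of 3 KO libraries lay above every WT library, and its log2 fold change was 0.07 (interval -0.17 to 0.31). For mt-Nd4 (chrM:10167-11544) they were 2086, 2126 and 2013 FPKM in KO, against 2072, 2067 and 1958 FPKM in WT. Its spread within groups was the smallest of all members, 2.96% of the mean, and its log2 fold change was 0.03 (interval -0.18 to 0.24).

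At the far end of the genome, mt-Nd5 (chrM:11742-13565) read 1948, 1944 and 1576 FPKM in KO, against 1874, 1844 and 1790 FPKM in WT. KO replicate 3 stood below and the other 2 KO libraries above all WT libraries, and its log2 fold change was -0.02 (interval -0.28 to 0.25). The one protein-coding gene on the minus strand, mt-Nd6 (chrM:13552-14070), which overlaps mt-Nd5 by 14 bases, read 2099, 1967 and 1520 FPKM in KO, against 1895, 1880 and 1879 FPKM in WT. It showed the same arrangement, at a log2 fold change of -0.03 (interval -0.35 to 0.29). Relative to the mean of the 12 plus-strand messenger RNAs its level was 0.976, 0.957 and 0.807 in KO, against 0.925, 0.923 and 0.963 in WT. That mean is lowered by the 6 genes wholly in the block, which averaged 7.65 to 133 FPKM. Of the plus-strand messenger RNAs not wholly in the block, only mt-Nd5 (mean 1829 FPKM) stood below mt-Nd6 (mean 1873 FPKM). Whether counting kept strands apart is not given in any source used, so reads of mt-Nd6 and of RNA from the opposite strand cannot be told apart.

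The last 2 complex I genes lie in the copied block. mt-Nd4l (chrM:9877-10173) read 61.5, 29.2 and 100 FPKM in KO, against 139, 126 and 44.6 FPKM in WT. Its log2 fold change of -0.70 (interval -2.03 to 0.63) was the most negative of the members with all libraries, and its highest library stood 4.78 times above its lowest. The value was -0.23 without KO replicate 2, -0.40 without WT replicate 1, -1.11 without KO replicate 3 and -1.22 without WT replicate 3, and without KO replicate 2 mt-Atp8 was more negative, at -0.51. Its copy Gm10222 varied less, from 282 to 342 reads in KO and from 252 to 294 reads in WT. For mt-Nd3 (chrM:9459-9806) the values were 6.95, 7.75 and 7.86 FPKM in KO, against 7.36, 8.80 and 7.19 FPKM in WT, from 80 to 98 reads each, and its log2 fold change was -0.04 (interval -0.26 to 0.17).

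Complex III passes electrons on to cytochrome c and takes 1 subunit, cytochrome b, from the mitochondrial genome. mt-Cytb (chrM:14145-15288) read 5028, 4926 and 4653 FPKM in KO, against 4886, 4984 and 4668 FPKM in WT. The groups overlapped throughout, and the log2 fold change of 0.01 (interval -0.27 to 0.28) was the smallest in size of the 32 tested members. Its sign turned in 6 of 19 other settings.

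Complex IV, cytochrome c oxidase, reduces oxygen to water and has its 3 core subunits encoded here. For mt-Co1 (chrM:5328-6872) the KO and WT means differed by 0.03 on the log2 scale (interval -0.31 to 0.37). The 3 WT libraries lay within 8283 to 8334 FPKM and between the KO libraries. mt-Co2 (chrM:7013-7696) read 144, 132 and 121 FPKM in KO, against 128, 145 and 128 FPKM in WT, at a log2 fold change of -0.02 (interval -0.22 to 0.17). mt-Co3 (chrM:8607-9390) read 74.0, 68.7 and 53.3 FPKM in KO, against 141, 65.0 and 56.6 FPKM in WT. WT replicate 1 stood above the other 5 libraries for mt-Co3 and also for its copy Gm28437, which had 1121, 1214 and 971 reads in KO and 3090, 970 and 995 reads in WT. The log2 fold change of mt-Co3 was -0.31 (interval -1.10 to 0.47), and 0.09 without WT replicate 1.

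Complex V, ATP synthase, has 2 subunits of its membrane part encoded here, on overlapping genes. The end of mt-Atp8 (chrM:7917-7969, plus strand) is shown because 43 of its bases, in capitals, are also the start of mt-Atp6. Reads there match both genes, and how they were counted is not given.
mt-Atp8: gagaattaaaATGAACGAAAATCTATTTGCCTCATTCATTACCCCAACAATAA
mt-Atp6 (chrM:7927-8607) read 91.8, 165 and 89.7 FPKM in KO, against 158, 94.4 and 104 FPKM in WT. mt-Atp8 (chrM:7766-7969) read 5.35, 10.6 and 3.42 FPKM in KO, against 19.8, 3.99 and 2.96 FPKM in WT. For both, KO replicate 2 and WT replicate 1 were the highest of the 6 libraries. The log2 fold change was -0.06 for mt-Atp6 (interval -0.73 to 0.61) and -0.10 for mt-Atp8 (interval -1.75 to 1.54). Without WT replicate 1 these became 0.16 and 0.69.

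The spread of the messenger RNAs inside the block reached further, although the ranges overlapped. Within groups the SD was 2.96% to 11.5% of the mean for the 7 genes not wholly in it, where counting error alone gives 0.153% to 0.559%. For the 6 genes wholly in it the SD was 8.0% to 93.2%, where counting error alone gives 1.83% to 14.0%. All 6 had negative log2 fold changes, from -0.70 to -0.02, and of the other 7, 4 were positive and 3 negative, from -0.04 to 0.07. Without KO replicate 1 and WT replicate 3 those 7 ran from -0.16 to -0.00071, all negative. Of the 6, mt-Atp8, mt-Atp6 and mt-Co3 turned positive without WT replicate 1, mt-Atp8 and mt-Atp6 also without KO replicate 3 and mt-Atp6 without KO replicate 1. mt-Nd3 turned positive without KO replicate 1 or WT replicate 2, and mt-Co2 without KO replicate 3 or WT replicate 2. The negative sign did not hold for all listed copies of these genes. Log2 fold changes were 0.24 for Gm28661, 0.27 for Gm10925 and 0.07 for Gm10222, against -0.50 for Gm28437 and -0.07 for Gm28438.

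**Figure D3:**
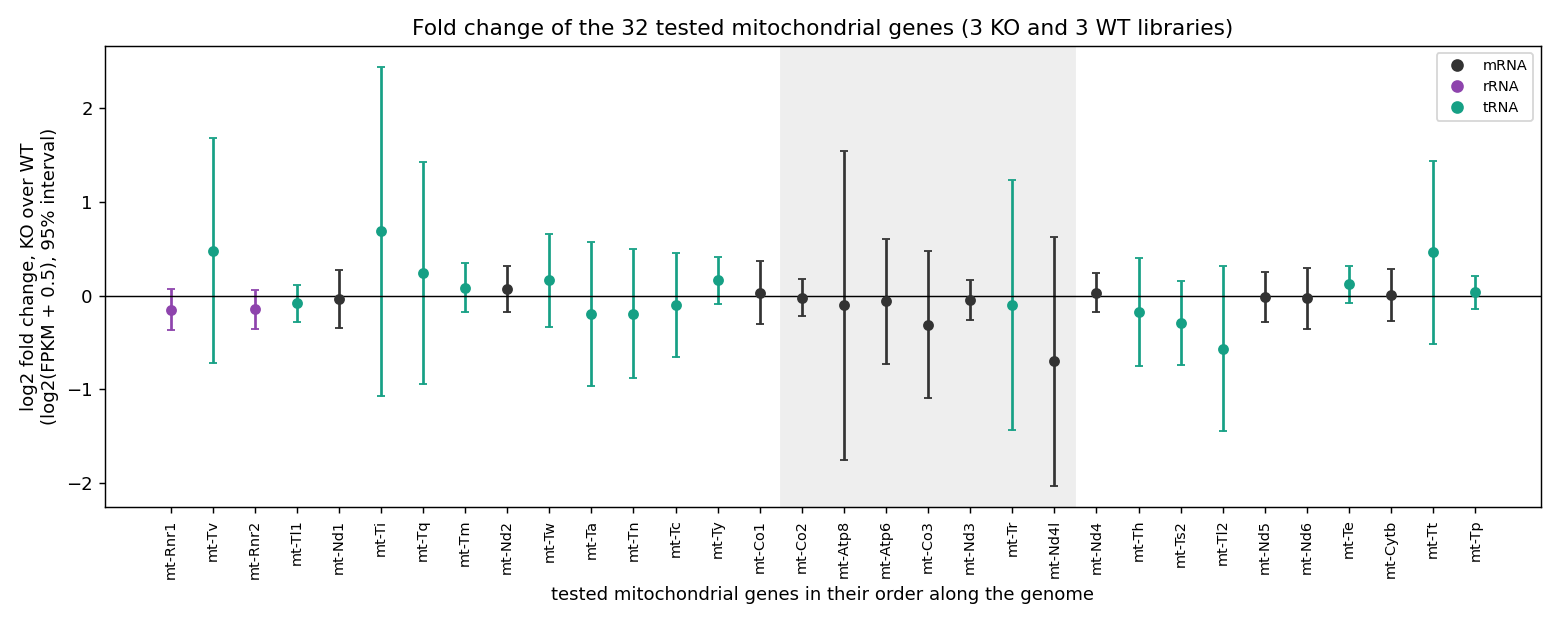
Log2 fold change, KO over WT, on log2(FPKM + 0.5) with 95% intervals from limma for the 32 tested mitochondrial genes in their order along the genome; colours mark messenger, ribosomal and transfer RNA, and grey the genes inside the copied block. All 32 intervals include 0, and the widest belong to genes with few reads or inside the block.

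Both ribosomal RNAs were lower in every KO library than in any WT library. mt-Rnr1 (chrM:70-1024), the RNA of the small subunit of the mitochondrial ribosome, read 2206, 2227 and 2183 FPKM in KO, against 2568, 2403 and 2370 FPKM in WT. mt-Rnr2 (chrM:1094-2675), the RNA of its large subunit, read 1750, 1816 and 1678 FPKM in KO, against 2024, 1899 and 1878 FPKM in WT. They were the only 2 of the 32 tested members whose groups did not overlap, a share near the 4.7% of all genes tested with all KO values below all WT values, and neither passed the test. For mt-Rnr1 the mean was 2205 ± 21.9 FPKM in KO and 2447 ± 106 FPKM in WT (SD, n = 3 each), a difference of -0.15 on the log2 scale, 95% interval -0.37 to 0.07 (limma adjusted p = 0.999, 0.334 to 1.0 in 19 other settings). For mt-Rnr2 the mean was 1748 ± 68.9 FPKM in KO and 1934 ± 78.9 FPKM in WT (SD, n = 3 each), a difference of -0.15 on the log2 scale, interval -0.35 to 0.06 (limma adjusted p = 0.999, 0.383 to 1.0 in 19 other settings). Over those 19 settings both log2 values ran from -0.17 to -0.11, and they were -0.17 for each without KO replicate 1 and WT replicate 3.

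The 2 ribosomal RNAs come from the same precursor and kept nearly the same ratio to each other. Per length, mt-Rnr1 stood at 1.26, 1.23 and 1.30 times mt-Rnr2 in KO, against 1.27, 1.27 and 1.26 times in WT. Together they took 0.484%, 0.504% and 0.484% of all reads in KO, against 0.559%, 0.526% and 0.531% in WT.

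The ribosomal RNAs were also set against the messenger RNAs of the same genome, which removes the scaling of the libraries. On this ratio all 3 KO libraries lay below all 3 WT libraries. It rests on the same mt-Rnr1 and mt-Rnr2 reads and is therefore not a separate result. There were 0.140, 0.150 and 0.157 ribosomal reads per messenger read in KO, against 0.172, 0.162 and 0.166 in WT. The log2 ratio differed by -0.16 between the group means, with an SD of 0.081 in KO and 0.045 in WT. With 3 libraries against 3 an exact permutation test cannot go below p = 0.1, and no p is given for sums over these genes. Leaving out each library in turn gave differences from -0.20 to -0.12, and leaving out KO replicate 1 with WT replicate 3 gave -0.12.

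Some other RNAs also had groups that did not overlap. Of 10 cell type and RNA marker lists, the summed level of the 5 choroid plexus markers was the one whose groups did not overlap, at 4.47 to 9.90 FPKM in KO and 3.24 to 4.41 FPKM in WT. Most of it came from Ttr, a carrier of thyroid hormone, while the other 4 markers were at most 0.667 FPKM in any library and overlapped between groups. Their part in the ribosomal RNA values was not tested. The sums of the other 9 lists overlapped between groups, among them 5 RNAs retained in the nucleus, with 256 to 353 FPKM in KO and 252 to 375 FPKM in WT. Within these lists Neat1, an RNA of nuclear paraspeckles, read 5.51, 5.12 and 7.62 FPKM in KO, against 2.88, 3.76 and 4.27 FPKM in WT. The astrocyte markers Aldh1l1 and Gja1, the neuronal marker Neurod6 and the endothelial marker Pecam1 also had all KO values above all WT values. Over all genes tested that share was 4.17%. By log2 fold change, 2 astrocyte markers were higher and 3 lower in KO, and the same held for excitatory neuron markers. Of the endothelial markers 3 were higher and 2 lower, and of the nuclear RNAs 4 and 1. In the lists of inhibitory neuron, microglia and blood markers, 0 were higher and 5 lower in each. Of the oligodendrocyte markers 3 were higher and 2 lower, and of the striatal neuron markers 5 and 1. The part of these genes in the ribosomal RNA values was not tested.

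**Figure D4:**
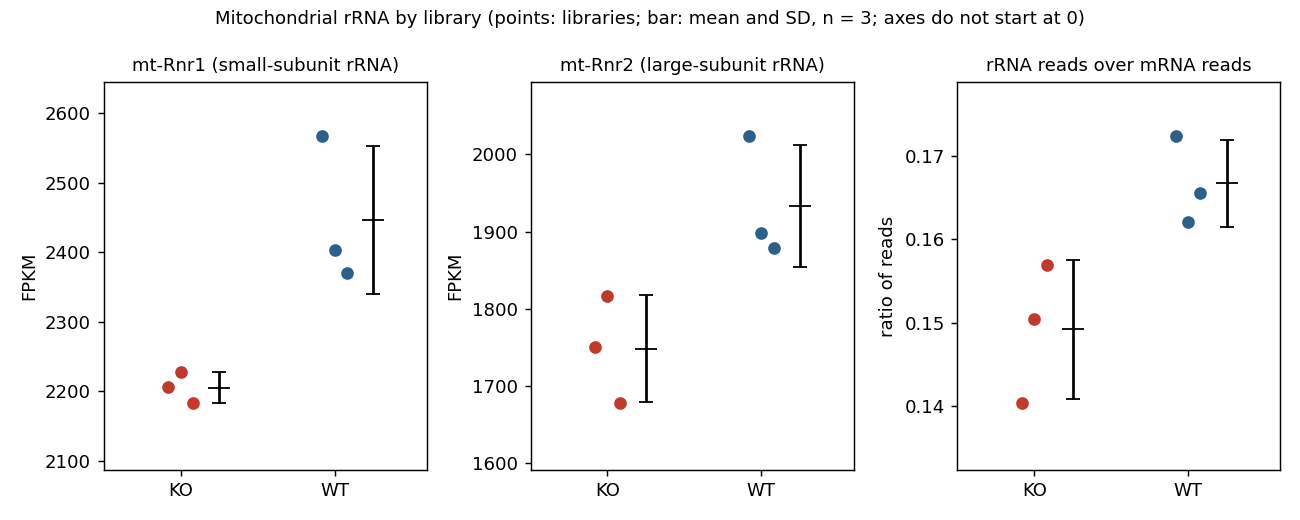
FPKM of mt-Rnr1 and mt-Rnr2, and reads on both per read on the 13 mitochondrial messenger RNAs, in 3 KO (red) and 3 WT (blue) libraries, with the mean and SD of each group beside them; the axes do not start at 0. All 3 KO libraries lie below all 3 WT libraries in each panel, by a log2 fold change of -0.15 for each gene.

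Transfer RNAs are short, folded and mostly without poly(A) tails, and together they took from 3134 to 3938 reads per library. The reads were unevenly spread over the 22 genes. mt-Tp, the gene for the proline transfer RNA next to the control region, held 42.9% of them, with 706, 721 and 678 FPKM in KO and 735, 660 and 659 FPKM in WT. The next were mt-Tc for cysteine, with 342, 316 and 195 FPKM in KO and 370, 269 and 262 FPKM in WT, and mt-Tn for asparagine, with 300, 226 and 143 FPKM in KO and 321, 230 and 195 FPKM in WT. These 2 genes stand on both sides of the origin of light-strand replication, and for both WT replicate 1 was the highest and KO replicate 3 the lowest of the 6 libraries. mt-Te for glutamate read 91.5, 114 and 104 FPKM in KO and 90.5, 97.8 and 95.7 FPKM in WT. Groups overlapped for all 4, with log2 fold changes of 0.04 for mt-Tp, -0.10 for mt-Tc, -0.19 for mt-Tn and 0.12 for mt-Te.

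The genes with most reads share an annotated strand. The 5 with most reads, mt-Tp, mt-Tc, mt-Tn, mt-Te and mt-Ty, are all among the 8 annotated on the minus strand, and minus-strand genes held 86.3% to 89.8% of transfer RNA reads in each library. The median of mean reads was 199 over the 8 minus-strand genes and 7.92 over the 14 plus-strand genes. As for mt-Nd6, reads of the minus-strand genes and of RNA from the opposite strand cannot be told apart. The gene with most reads and 1 with no reads are given here as transcripts from GENCODE M21. They are mt-Tp from chrM:15356-15422, minus strand, and mt-Tf, for phenylalanine, from chrM:1-68, plus strand, at the start of the annotated sequence.
mt-Tp: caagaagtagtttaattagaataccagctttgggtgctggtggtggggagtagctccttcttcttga
mt-Tf: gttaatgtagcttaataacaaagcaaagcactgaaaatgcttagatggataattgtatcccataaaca
mt-Tf and mt-Tg, for glycine, had 0 reads in all 6 libraries, which at 3 reads allows up to 1.23 to 1.44 FPKM by counting error. The 5 transfer RNA genes inside the copied block had at most 3 reads in any library, while the 17 outside it had a median of 35.2. Of the 17 transfer RNA genes tested, 9 had positive and 8 negative log2 fold changes, from -0.57 for mt-Tl2 to 0.68 for mt-Ti, a gene with 1 to 18 reads.

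**Figure D5:**
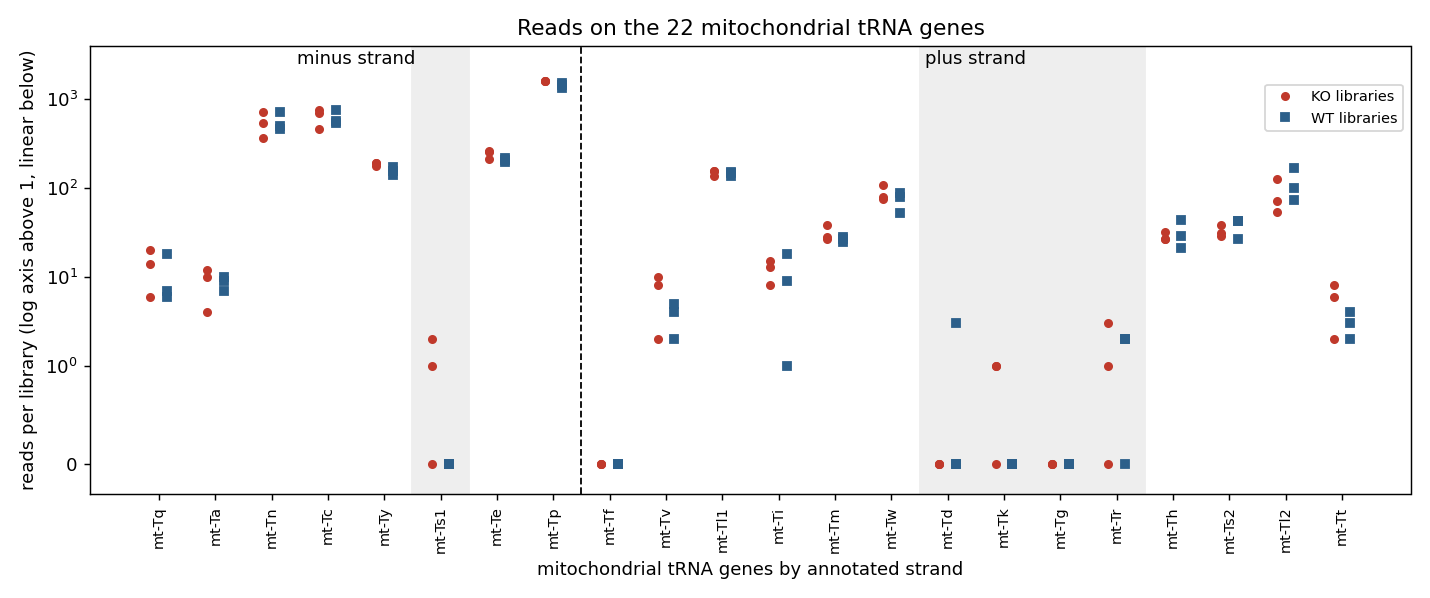
Reads per library (log axis above 1, linear below) on the 22 mitochondrial transfer RNA genes, split by annotated strand, in 3 KO (red circles) and 3 WT (blue squares) libraries. Grey marks the 5 genes inside the copied block, with at most 3 reads; mt-Tp on the minus strand has 1358 to 1626 reads.

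Nuclear genes that serve the mitochondrial genome were taken as 4 lists, in which 0 members passed the test in either direction (limma adjusted p, with 3 members at an unadjusted p under 0.05, where 3.82% of all genes tested had one). For transcription and replication of the mitochondrial genome, 10 of 16 tested members had positive log2 fold changes, with a median of 0.03 that was -0.0016 without KO replicate 3 and 0.0076 without WT replicate 2. Mterf1a, of the mitochondrial transcription termination factor family, read 1.03, 0.792 and 0.853 FPKM in KO, against 0.428, 0.591 and 0.710 FPKM in WT (log2 fold change 0.38, limma adjusted p = 0.999). Mterf2, of the same family, read 4.18, 4.16 and 4.29 FPKM in KO, against 3.80, 3.22 and 3.87 FPKM in WT (log2 fold change 0.19, limma adjusted p = 0.999). In both cases all KO values lay above all WT values, as they did for 4.17% of all genes. Mterf1b, also of this family, overlapped between groups, at 1.19, 1.27 and 1.71 FPKM in KO and 1.59, 0.929 and 1.17 FPKM in WT. Polg, the mitochondrial DNA polymerase, read 5.78, 6.18 and 7.08 FPKM in KO, against 7.09, 6.84 and 7.87 FPKM in WT. Mterf4, a family member that acts with Nsun4 on the mitochondrial ribosome, was the one gene of the 16 with all KO values below all WT values, an arrangement that 4.7% of all genes tested showed, at 1.59, 1.57 and 1.62 FPKM in KO and 1.77, 1.68 and 1.71 FPKM in WT.

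For RNA processing, modification and decay, 19 of 31 tested members had positive values, with a median of 0.02, and 4, Nsun4, Ptcd3, Trmt5 and Fastkd2, had all KO values above all WT values, as did 4.17% of all genes tested. Nsun4, which takes part in assembly of the mitochondrial ribosome and methylates mt-Rnr1, read 2.07, 1.98 and 2.14 FPKM in KO, against 1.83, 1.76 and 1.69 FPKM in WT (log2 fold change 0.18, limma adjusted p = 0.999). Mrm1, a methyltransferase for mitochondrial ribosomal RNA, read 7.26, 6.22 and 6.92 FPKM in KO, against 5.84, 6.42 and 5.96 FPKM in WT, so that its groups overlapped. Ptcd3, a protein of the small mitochondrial subunit, read 5.79, 5.90 and 5.97 FPKM in KO, against 5.24, 5.30 and 5.69 FPKM in WT. Slirp, a partner of the RNA-binding protein Lrpprc, lay below the expression filter.

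Nuclear subunits of complexes I, III, IV and V, the partners of the proteins encoded in mitochondria, had negative log2 fold changes for 28 of 30 tested members. Their median was -0.07, against -0.0042 over all genes tested. In 0 members did the groups not overlap, where 4.17% of all genes tested had KO above and 4.7% KO below. The median was -0.20 without KO replicate 1 and WT replicate 3, and with single libraries left out it ran from -0.022 without KO replicate 3 to -0.14 without KO replicate 1. Cox5b read 69.7, 57.4 and 61.4 FPKM in KO, against 83.2, 78.0 and 64.6 FPKM in WT. Cox4i1 read 272, 242 and 240 FPKM in KO, against 293, 292 and 250 FPKM in WT, and Cox6a1 490, 434 and 431 FPKM in KO, against 543, 547 and 442 FPKM in WT. For all 3 genes WT replicate 3 lay within the range of the KO values. The remaining member, the entry matched by name to Atp5o at chr16:91684398-91926982, was listed at 0 in every library and not tested. Other entries for this subunit were not looked for, so the 0 need not be its RNA level. The messenger RNAs of the same complexes that are encoded in mitochondria and lie not wholly in the block had log2 fold changes from -0.04 to 0.07, and from -0.16 to -0.00071 without that pair. The difference between these 2 groups was not tested. Among 14 genes of mitochondrial biogenesis and mass the median was -0.05, and -0.0084 without KO replicate 3, with Gabpa, a nuclear respiratory factor subunit, at 3.56, 4.27 and 4.42 FPKM in KO and 3.65, 3.76 and 3.47 FPKM in WT. Tomm20, an import receptor, read 63.4, 61.1 and 57.1 FPKM in KO, against 65.5, 66.1 and 61.8 FPKM in WT, and Esrra, a nuclear receptor that drives mitochondrial genes, 30.5, 27.4 and 28.6 FPKM in KO, against 31.2, 32.5 and 28.7 FPKM in WT.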

How the data were processed

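Per the labels' protocols, cortical RNA was isolated in Trizol and prepared for sequencing with a TruSeq RNA kit, and per the submitters' processing notes Bowtie, with no version, and mm10 were used. For the counting program, annotation release, strand and treatment of reads with several matches nothing is given in the labels or files. The authors deposited FPKM per gene and library, without pooling, with gene positions and lengths. Values times length were whole multiples of 1 step in 100% of cases within 0.001, which gave the reads, and each library has an extra scaling factor between 0.979 and 1.01.

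Since the values are not counts, limma 3.58.1 in R 4.3.3 was run on log2(FPKM + 0.5) for genes averaging 0.5 FPKM or more, with a variance trend, two-sided, threshold 0.05, and was tested on simulated data. Fold changes on that scale understate changes of low genes. The members and gene lists were chosen with earlier results of these data known. Exact permutation tests planned for sums are given as values only. All 37 mitochondrial positions equal GENCODE M21, whose transcripts were compared with blastn 2.17.0 and gave the sequences; windows were sought letter for letter, on both strands, in the nuclear transcripts that blastn matched. All messenger and ribosomal RNAs and the 4 transfer RNAs with most reads were named by rule. So were, from each list, the 3 members with the smallest p. mt-Tf, mt-Tg, mt-Tl2, mt-Ti, mt-Ty, Mterf1b, Mterf4, Trmt5, Fastkd2, Slirp, Atp5o and the single markers were chosen after their values were seen. Alternatives were other scalings, pseudocounts, filters, variance settings, sample weights, a replicate block, voom on the recovered reads and left-out libraries, and, chosen after seeing the data, FPKM recomputed from the recovered reads.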

Additional observations from a re-analysis of the deposited data

How the results depend on the processing

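Under every alternative 0 mitochondrial genes passed an adjusted p of 0.05. Mitochondrial genes at an unadjusted p under 0.05 numbered 2 with TPM scaling, sample weights, voom and both WT replicate 3 and KO replicate 1 left out, and 1 with no filter or no variance trend, against 0 in the main test and 0 to 3 leaving out each library. Over all genes that count was 1214 with no filter, 1420 with sample weights, 2095 without that pair, where 1 gene passed adjusted, and 426 to 1024 leaving out each library, against 599. Correlations of deviations from the group mean were 0.082, 0.013 and 0.21 between KO and WT libraries with the same replicate number. Between different numbers they ran from -0.164 to 0.113. These values do not settle whether the numbers pair the libraries. With a replicate block 1 mitochondrial gene had an unadjusted p under 0.05 (limma).

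Signs near 0 turned. Without WT replicate 3 and KO replicate 1, log2 fold changes were -0.013 for mt-Nd2, -0.011 for mt-Co1, -0.00071 for mt-Nd4 and -0.044 for mt-Cytb, the share of reads differed by -0.071 percentage points for all mitochondrial genes and -0.022 for messenger RNAs, and the median of nuclear partner subunits was -0.20. Sample weights gave -1.36 for mt-Nd4l, 0.073 for mt-Atp6 and -0.0054 for mt-Cytb, TPM scaling 0.0043 for mt-Nd5, and median centring -0.0027 for mt-Cytb. With nuclear reads as the total the median of RNA processing genes was 0.034.

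Leaving out each library, log2 fold changes ranged from -0.12 to 0.040 for mt-Nd1, -0.013 to 0.084 for mt-Co1, -0.085 to 0.041 for mt-Co2, -0.59 to 0.69 for mt-Atp8, -0.35 to 0.16 for mt-Atp6, -0.56 to 0.092 for mt-Co3, -0.094 to 0.043 for mt-Nd3, -1.22 to -0.23 for mt-Nd4l, -0.069 to 0.084 for mt-Nd5, -0.12 to 0.11 for mt-Nd6, -0.020 to 0.039 for mt-Cytb, -0.26 to 0.15 for mt-Tc and -0.44 to 0.096 for mt-Tn. The share differed by -0.055 to 0.13 percentage points for all mitochondrial genes, -0.011 to 0.17 for messenger and -0.00048 to 0.00069 for transfer RNAs, and the log2 ratio of mt-Nd6 to plus-strand messenger RNAs by -0.092 to 0.045. The median ran from 0.013 to 0.039 for RNA processing genes, -0.0016 to 0.045 for transcription and replication, -0.14 to -0.022 for partner subunits and -0.064 to -0.0084 for biogenesis. The cause was not tested for any of these.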
